A study of Mus musculus with 6 samples.

Results

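The 10 genes described here move, store, release or sense iron and heme in macrophages. They were chosen by name, with earlier results of these data known. They are Slc11a1, Slc11a2, Slc40a1, Tfrc, Trf, Fth1, Ftl1, Hmox1, Ireb2 and Cp. All 10 were found among the 40481 genes of the count table, and all 10 were among the 14778 genes with enough counts to test. The cells were unstimulated bone marrow-derived macrophages (BMDMs), grown in culture from mouse bone marrow, and poly(A)-selected RNA of 3 samples of each genotype, wild type and Scd2-m/-m, was sequenced as 1 library per sample. Scd2 encodes a stearoyl-CoA desaturase that makes monounsaturated fatty acids. The Scd2-m/-m mice carried floxed Scd2 alleles and the lysozyme M-Cre transgene, which is active in cells of the myeloid lineage. Further alleles of the wild-type mice, including whether they carried Cre or floxed alleles, are not given in the labels or methods. Per the study's methods the mice were of both sexes and a few months old, and the sex behind each library is not given. Cells of both genotypes were cultured in medium with 10% CMG-conditioned medium, a source of macrophage growth factor, for 5 to 6 days, and then kept in 2%. The labels do not say whether the 3 samples of a genotype came from separate animals or cultures, so the p-values measure only the spread between these samples.

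The libraries held 46285176 to 57629638 counts on genes, with overlapping totals between the genotypes. Levels are given as CPM, the count of a gene per 1e6 counts of its library, on library sizes scaled by the trimmed mean of M values (TMM), and differences as the log2 fold change of Scd2-m/-m minus wild type. A gene was called where the false discovery rate (FDR) from edgeR's quasi-likelihood test, adjusted over all 14778 genes, was below 0.05. Scd2 itself (ENSMUSG00000025203, chr19:44293674-44306864) stood at 66.9, 77.7 and 62.7 CPM in wild type and at 59.5, 37.9 and 39.8 CPM in Scd2-m/-m, in the order of replicates 1, 2 and 3 used for every gene below. All 3 Scd2-m/-m libraries were below all 3 wild-type libraries, and Scd2-m/-m replicate 1 was the nearest to wild type. The log2 fold change of Scd2 was -0.59 (SE 0.195), with an edgeR FDR of 0.1, so it was not called. These counts cover the whole gene and do not set the deleted part apart from the rest of the transcript. By quantitative PCR, a different assay, the study reported a larger fall of Scd2 transcript in Scd2-m/-m macrophages. Over all genes, 2585 were called (17.5%), 1426 of them higher (9.65%) and 1159 lower (7.84%). The median log2 fold change of all genes tested was 0.00386.

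Macrophages take in iron bound to transferrin through the transferrin receptor, and iron and heme from engulfed red cells through the phagosome. Divalent metal transporters carry iron across endosomal and phagosomal membranes, heme oxygenase frees it from heme, ferritin stores it, and ferroportin is the only known exporter of iron from the cell. Iron regulatory proteins bind a hairpin, the iron responsive element, in messenger RNAs of this pathway when iron is scarce, which blocks translation where the hairpin lies ahead of the coding sequence and protects the RNA from decay where it lies behind it.

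Sequences able to form that hairpin are shown first, because its place in the RNA bears on whether it acts on translation or on RNA decay. The letters searched were a bulged C, 5 bases of any kind and the loop CAGTGN, in which N is any base, with the 5 bases between bulge and loop able to pair with the 5 bases after the loop (G-T pairs allowed). They were sought on the transcribed strand of the annotated untranslated regions (UTRs) of GRCm38. In the 5′ UTR, 31 of 20597 genes held a match (0.151%), and in the 3′ UTR 129 of 20964 did (0.615%). Capitals mark the bulged C and the 6 bases of the loop, and the sites are printed as 27 bases to show the flanks that form the lower stem. Fth1 and Ftl1 encode the heavy and light ferritin subunits and Slc40a1 encodes ferroportin, and each held 1 site in the 5′ UTR, at chr19:9982733-9982759 on the plus strand, chr7:45459780-45459806 on the minus strand and chr1:45925466-45925492 on the minus strand, in that order.
Fth1: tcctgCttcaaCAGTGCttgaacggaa
Ftl1: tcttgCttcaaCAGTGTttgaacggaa
Slc40a1: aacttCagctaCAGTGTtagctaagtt

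Tfrc, the transferrin receptor, held 4 sites on the plus strand in its 3′ UTR, at chr16:32631220-32631246, chr16:32631599-32631625, chr16:32631664-32631690 and chr16:32631711-32631737.
Tfrc site 1: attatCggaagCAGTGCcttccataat
Tfrc site 2: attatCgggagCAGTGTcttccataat
Tfrc site 3: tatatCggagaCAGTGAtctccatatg
Tfrc site 4: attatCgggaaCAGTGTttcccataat

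The site of Fth1 was in 4 of its 5 annotated coding transcripts, that of Ftl1 in 1 of 2, that of Slc40a1 in 1 of 4 and those of Tfrc in 1 of 3. The counts were made per gene and do not separate these transcripts. No match was found in the UTRs of the other 6 genes, which says only that these letters and pairings were not there. A hairpin of another form would have been missed, so these genes, Slc11a2 among them, are not shown to lack one.

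Transcripts of both Slc11 metal transporters, of the iron exporter and of transferrin fell in Scd2-m/-m macrophages, and those of the ferritin subunits and heme oxygenase were not called. Of the 10 genes, 4 were called, all of them lower: Slc11a1, Trf, Slc40a1 and Slc11a2. That is 40% of the 10 genes, beside 17.5% of all genes called in either direction and 7.84% called lower. Because the 10 were chosen with earlier results of these data known, these shares are only a description. The log2 fold changes of the 4 called genes ran from -0.47 to -0.29, so that their levels in Scd2-m/-m were 72.2% to 82% of wild type. No gene of the 10 passed an absolute log2 fold change of 2, which 98 of all genes did with a call (0.663%). The median log2 fold change of the 10 genes was -0.165. In bulk RNA, fewer cells that express a gene and less of its RNA per cell cannot be told apart.

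**Figure D1:**
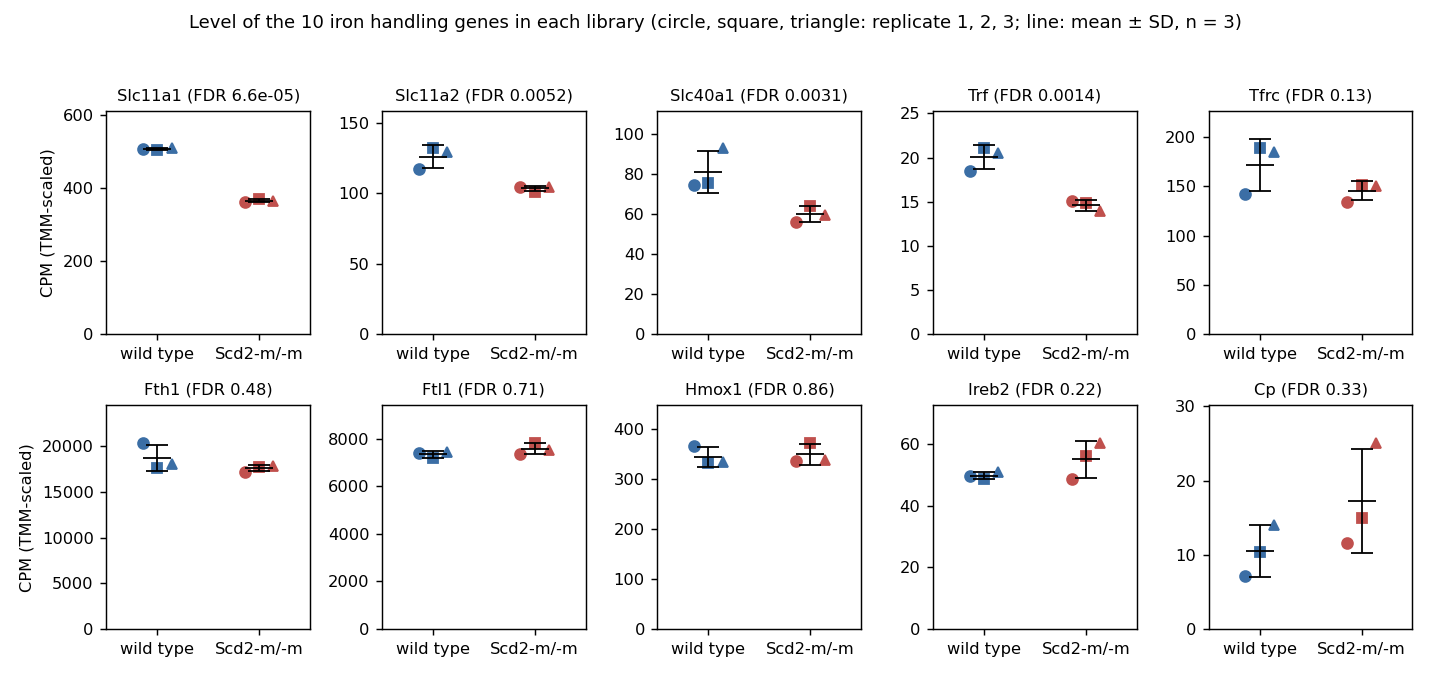
Level of each of the 10 genes in CPM on TMM-scaled library sizes, with 1 point per library (circle, square and triangle for replicates 1, 2 and 3) and the mean ± SD of 3 libraries, for wild type and Scd2-m/-m. The genotypes do not overlap for Slc11a1, Slc11a2, Slc40a1 and Trf, and they overlap for the other 6 genes.

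Slc11a1, the metal transporter of the phagosome membrane also known as NRAMP1, had the lowest FDR of the 10. The gene (ENSMUSG00000026177) lies at chr1:74375195-74386062 on the plus strand. It stood at 506.0, 502.5 and 508.6 CPM in the wild-type libraries and at 362.9, 369.1 and 363.5 CPM in the Scd2-m/-m libraries. The replicates of each genotype lay close together and the genotypes were far apart. Slc11a1 fell by 0.47 on the log2 scale (SE 0.0563, 95% interval -0.59 to -0.349, edgeR FDR 6.64e-05), to 72.2% of wild type. It was called in all 15 alternative settings tried, with log2 fold changes of -0.477 to -0.457.

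Slc11a2 encodes DMT1, the related transporter that brings transferrin-derived iron out of endosomes. The gene (ENSMUSG00000023030) lies at chr15:100387898-100425072 on the minus strand. It stood at 117.2, 132.1 and 129.3 CPM in wild type and at 104.7, 101.3 and 104.5 CPM in Scd2-m/-m. Wild-type replicate 1 was the lowest of its group and was still above every Scd2-m/-m library. Slc11a2 fell by 0.29 on the log2 scale (SE 0.0611, 95% interval -0.417 to -0.154, edgeR FDR 0.00515), to 82% of wild type. It was called in all 15 alternatives, with the highest FDR at 0.048.

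Slc40a1, the gene of the iron exporter ferroportin (ENSMUSG00000025993), lies at chr1:45908068-45926523 on the minus strand. It stood at 74.6, 75.8 and 93.1 CPM in wild type and at 56.2, 64.3 and 59.6 CPM in Scd2-m/-m. Wild-type replicate 3 was high within its group, and the genotypes did not overlap. Slc40a1 fell by 0.44 on the log2 scale (SE 0.0851, 95% interval -0.619 to -0.252, edgeR FDR 0.00309), to 74% of wild type. It was called in all 15 alternatives, with log2 fold changes of -0.493 to -0.326.

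Trf encodes transferrin, the iron carrier of serum, which is made mainly by the liver. The gene (ENSMUSG00000032554) lies at chr9:103204001-103230444 on the minus strand and had low levels in these cells. It stood at 18.5, 21.1 and 20.5 CPM in wild type and at 15.1, 14.8 and 13.9 CPM in Scd2-m/-m. All 3 Scd2-m/-m libraries were below all 3 wild-type libraries. Trf fell by 0.46 on the log2 scale (SE 0.0804, 95% interval -0.628 to -0.283, edgeR FDR 0.00141), to 72.9% of wild type, and was called in all 15 alternatives.

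Tfrc, the receptor that takes up transferrin (ENSMUSG00000022797, chr16:32608920-32632794, plus strand), was not called. It stood at 141.8, 188.7 and 185.2 CPM in wild type and at 134.2, 151.5 and 150.5 CPM in Scd2-m/-m. Replicate 1 was the lowest library of both genotypes, and wild-type replicate 1 lay among the Scd2-m/-m libraries. The log2 fold change of Tfrc was -0.24 (SE 0.101, 95% interval -0.464 to -0.0191), with an edgeR FDR of 0.134. Without wild-type replicate 1 it was -0.363, with an edgeR FDR of 0.00185, so that leaving out this library led to a call. A fit that included the replicate number also called Tfrc, as given at the end.

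The genes that did not overlap between genotypes were the same 4 that were called, 4 of 10, beside 34.9% of all genes tested.

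**Figure D2:**
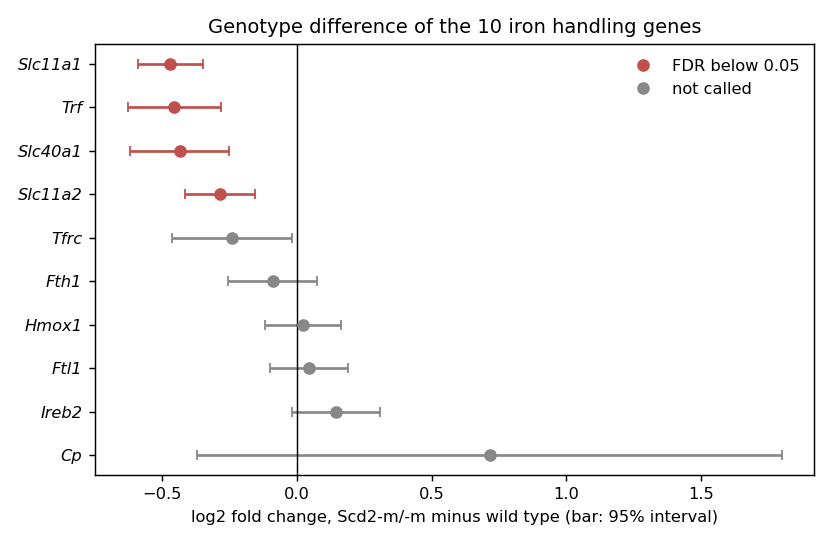
Log2 fold change of each of the 10 genes (Scd2-m/-m minus wild type, point) with its 95% interval (bar), in red where the edgeR FDR was below 0.05. The 4 called genes lie between -0.47 and -0.29, and Cp has the widest interval, from -0.369 to 1.8.

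Ferritin, the shell that stores iron inside the cell, gave some of the most abundant transcripts. Fth1 (ENSMUSG00000024661, chr19:9980598-9985098, plus strand) stood at 20412, 17666 and 18104 CPM in wild type and at 17229, 17696 and 17890 CPM in Scd2-m/-m. Wild-type replicate 1 was above the other 5 libraries, which lay close together. The log2 fold change of Fth1 was -0.089 (SE 0.077, 95% interval -0.255 to 0.0763, edgeR FDR 0.477). Ftl1 (ENSMUSG00000050708, chr7:45457944-45459884, minus strand) stood at 7394, 7175 and 7453 CPM in wild type and at 7350, 7827 and 7531 CPM in Scd2-m/-m. The genotypes overlapped, since Scd2-m/-m replicate 1 lay within the wild-type range. The log2 fold change of Ftl1 was 0.044 (SE 0.0674, 95% interval -0.1 to 0.189, edgeR FDR 0.711). Neither ferritin gene was called in any of the 15 alternatives.

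Together the 2 ferritin genes took 2.48% to 2.72% of all counts in a library. Fth1 ranked 2 among all genes in each wild-type library and 1 in each Scd2-m/-m library, and Ftl1 ranked 11 in wild type and 9 or 10 in Scd2-m/-m. Lyz2, which encodes lysozyme, stood at a mean of 22742 CPM in wild type, above Fth1, and at 9026 CPM in Scd2-m/-m, below it. Lyz2 is also the locus that drives the Cre transgene. Ferritin genes have near-identical copies, so reads could have been split among them. Ftl1-ps1, Ftl1-ps2, Ftl2-ps and Fth-ps2 together held 0.159% to 0.214% of the ferritin counts, and none of them was called (edgeR FDR 0.396 to 0.999). The Fthl17 genes had 0 counts in all 6 libraries.

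Hmox1, the inducible heme oxygenase that opens the heme ring and frees its iron, lies at chr8:75093621-75100589 on the plus strand (ENSMUSG00000005413). It stood at 365.7, 331.8 and 332.8 CPM in wild type and at 336.6, 372.4 and 337.7 CPM in Scd2-m/-m. In each genotype 1 library stood above the other 2, and the ranges overlapped. Hmox1 had a log2 fold change of 0.023 (SE 0.0657, 95% interval -0.119 to 0.164, edgeR FDR 0.857), and its sign turned without wild-type replicate 2, wild-type replicate 3 or Scd2-m/-m replicate 2.

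Ireb2 encodes iron regulatory protein 2, which binds the hairpins shown above (ENSMUSG00000032293, chr9:54863789-54912530, plus strand). It stood at 49.5, 48.7 and 51.0 CPM in wild type and at 48.5, 56.1 and 60.4 CPM in Scd2-m/-m. Scd2-m/-m replicates 2 and 3 were above all wild-type libraries, while Scd2-m/-m replicate 1 was below them. For Ireb2 the log2 fold change was 0.15 (SE 0.0764, 95% interval -0.0185 to 0.309, edgeR FDR 0.22). Without Scd2-m/-m replicate 1 it was 0.228 with an edgeR FDR of 0.0284. The other RNA-binding regulator, Aco1, which is iron regulatory protein 1 when it holds no iron-sulfur cluster, had a wild-type mean of 78.5 ± 0.598 CPM and a Scd2-m/-m mean of 76.6 ± 2.96 CPM (SD, n = 3) and was not called (log2 fold change -0.036, edgeR FDR 0.726).

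Cp encodes ceruloplasmin, a copper ferroxidase that helps load exported iron onto transferrin (ENSMUSG00000003617, chr3:19957054-20009145, plus strand). It was the most variable of the 10 genes, at 7.11, 10.3 and 14.0 CPM in wild type and 11.6, 15.0 and 25.1 CPM in Scd2-m/-m. The genotypes overlapped, and the 6 libraries spanned 3.53-fold. Cp had a log2 fold change of 0.72 (SE 0.411, 95% interval -0.369 to 1.8, edgeR FDR 0.331). In both genotypes its level rose from replicate 1 to replicate 3, and a fit that included the replicate number called Cp, as given at the end. Its lowest count in a library was 353, so that counting error was small beside the spread between libraries.

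Ratios of counts within a library do not depend on how libraries are scaled, and 3 such pairs were compared with a two-sided exact permutation test over the 6 libraries, in which 3 against 3 cannot give a p below 0.1. The Fth1 to Ftl1 count ratio, of heavy to light ferritin chains, was 2.76, 2.46 and 2.43 in wild type and 2.34, 2.26 and 2.38 in Scd2-m/-m. The highest Scd2-m/-m library stayed under the lowest wild-type one. The means differed by -0.13 on the log2 scale (exact permutation p = 0.1, 0.15 adjusted over the 3 ratios). The Slc11a1 to Slc11a2 count ratio, of phagosomal to endosomal transporter, was 4.32, 3.80 and 3.93 in wild type and 3.47, 3.64 and 3.48 in Scd2-m/-m. It did not overlap either, and the means differed by -0.186 on the log2 scale (exact permutation p = 0.1, adjusted 0.15). The Tfrc to Slc40a1 count ratio, of iron entry to iron exit, was 1.90, 2.49 and 1.99 in wild type and 2.39, 2.36 and 2.52 in Scd2-m/-m. Here the genotypes overlapped, since wild-type replicate 2 lay among the Scd2-m/-m libraries, and the difference was 0.198 on the log2 scale (exact permutation p = 0.3, adjusted 0.3).

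**Figure D3:**
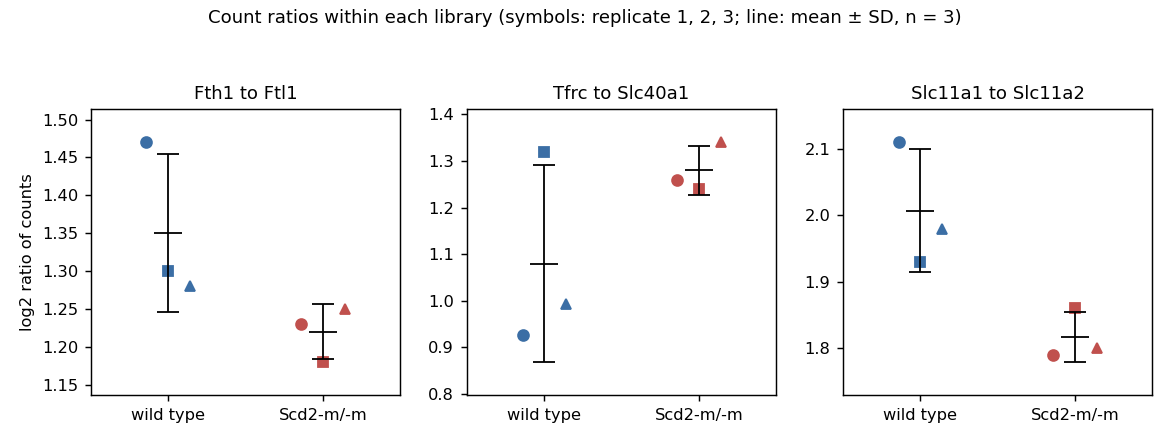
Log2 ratio of counts within each library for Fth1 to Ftl1, Tfrc to Slc40a1 and Slc11a1 to Slc11a2, with 1 symbol per replicate and the mean ± SD of 3 libraries. The vertical axes do not start at 0, and the genotypes are apart for the first and the last ratio only.

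To compare levels between genes, CPM was divided by the kilobases of annotated exon. The order in wild type was Ftl1 (5478 ± 109 CPM per kilobase, SD, n = 3), Fth1 (5398.5 ± 425), Hmox1 (196 ± 11.02), Slc11a1 (136 ± 0.822), Tfrc (27.8 ± 4.22), Slc11a2 (19.9 ± 1.25), Slc40a1 (9.02 ± 1.15), Trf (6.03 ± 0.407), Ireb2 (5.25 ± 0.119) and Cp (1.10 ± 0.363). The ferritin subunits were thus far above every other gene of the 10, and the exporter Slc40a1 was below both transporters of the Slc11 family. In wild type only the neighbours Ftl1 and Fth1 overlapped. In Scd2-m/-m the order was the same except that Ireb2 (5.80 ± 0.633) stood above Trf (4.40 ± 0.187), and only Slc40a1 (6.67 ± 0.451) and Ireb2 overlapped. Some of this order rests on the length used. With the length of the principal transcript, a choice made after seeing the data, Fth1 (12535 CPM per kilobase in wild type) was above Ftl1 (7583), Slc11a2 (41.7) was above Tfrc (35.2), and Ireb2 (8.62) was above Trf (7.79). Hmox1 (218.9 ± 12.3) and Slc11a1 (218.4 ± 1.32) then overlapped in wild type, and Trf and Cp overlapped in Scd2-m/-m. By that length the order of the 10 genes was the same in both genotypes, so the exchange of Ireb2 and Trf between them was seen by annotated exons only.

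**Figure D4:**
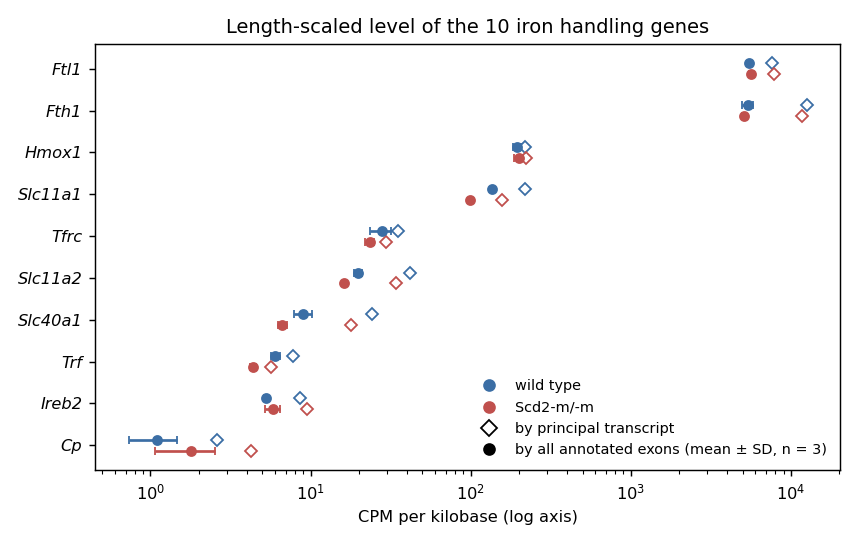
Level of the 10 genes in CPM per kilobase on a log axis, in wild type and Scd2-m/-m, by all annotated exons (filled points, mean ± SD, n = 3) and by the principal transcript (open diamonds). By annotated exons Ftl1 lies at 5478 and Cp at 1.10 in wild type, and the diamonds exchange the order of Fth1 with Ftl1, of Tfrc with Slc11a2 and, in wild type, of Trf with Ireb2.

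Lists of 89 other iron and heme genes placed the 10 in their pathway. Of these, 77 were tested and 18 were called (23.4%), 10 higher and 8 lower, and the median log2 fold change was 0.0117. Over all genes tested the shares were 17.5% called, 9.65% higher and 7.84% lower. The regulators (18.2% called) and the mitochondrial list (17.9%) lay near that share and heme synthesis (7.69%) below it, so their counts say nothing particular about those lists. Of the 7 tested genes for iron uptake and reduction, 3 rose and none fell. They were Lcn2, which encodes a protein that binds bacterial siderophores, from 2.30 ± 0.120 to 5.36 ± 0.650 CPM (log2 fold change 1.22, edgeR FDR 6.53e-05), the lactoferrin gene Ltf (1.44, edgeR FDR 0.000313) and Slc39a8, which encodes an importer of zinc and other divalent metals (0.64, edgeR FDR 0.000669). Lcn2 and Ltf encode secreted iron-binding proteins of neutrophil granules rather than importers. Of the 10 tested neutrophil markers, a list that also holds Ltf, 6 rose and 1 fell, with a list median of 1.12 on the log2 scale. Their summed level was 183 to 192 CPM for wild type and 162 to 194 CPM for Scd2-m/-m, but most of that sum was Csf3r, which fell from 164 ± 6.15 to 135 ± 12.01 CPM (edgeR FDR 0.0105). Of the same markers, S100a9 (313% of wild type, edgeR FDR 6.69e-06) and Ngp (335%, edgeR FDR 0.000205) rose from low levels of 2.79 and 2.51 CPM. The part of such cells in the rise of Lcn2 and Ltf was not tested.

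Of the 4 tested genes for iron and heme export, a list without Slc40a1, 2 rose and 2 were not called. Abcg2, which exports heme and other compounds, rose from 6.03 ± 0.538 to 9.57 ± 0.392 CPM (log2 fold change 0.67, edgeR FDR 0.000676), and Flvcr1, a heme exporter in many accounts and also a choline transporter, rose by 0.25 (edgeR FDR 0.028). Leaving out replicate 2 or 3 of either genotype left 1 called gene in this list. Of 9 genes for heme uptake and breakdown, 1 rose and 2 fell. Blvrb, a biliverdin reductase acting after heme oxygenase, fell to 78.6% of wild type (log2 fold change -0.35, edgeR FDR 0.00207), and Slc48a1, which carries heme out of the phagolysosome, fell to 84.5% (-0.24, edgeR FDR 0.00995). Hp, the hemoglobin-binding haptoglobin, rose by 0.86 (edgeR FDR 0.00356) at low levels of 2.15 and 3.92 CPM.

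Among 5 storage genes, Pcbp1, a chaperone that delivers iron to ferritin, fell to 85.6% of wild type (log2 fold change -0.22, edgeR FDR 0.037), while Ncoa4, the receptor that sends ferritin to the lysosome, rose to 116% (0.22, edgeR FDR 0.0477). Both calls were lost without wild-type replicate 1 or 2 and without Scd2-m/-m replicate 2 or 3, where 0 genes of this list were called. With RLE factors, upper-quartile factors or limma-voom on all libraries 1 of the 2 calls remained, and with an FDR below 0.01 neither did. Of 13 heme synthesis genes only the first enzyme, Alas1, was called (0.20, edgeR FDR 0.0486), and leaving out any of 5 libraries other than wild-type replicate 1 ended that call, as did RLE factors, DESeq2 and limma-voom on all 6 libraries. Of 11 regulators, the hypoxia factor Hif1a fell from 114.5 ± 6.84 to 81.7 ± 9.93 CPM (-0.49, edgeR FDR 0.00114), as did Mafg, a partner of the factors that act on Hmox1 and the ferritin genes (-0.32, edgeR FDR 0.00206). Of 28 genes for mitochondrial iron and iron-sulfur clusters, 2 rose and 3 fell, among them the cluster scaffold gene Iscu (-0.31, edgeR FDR 0.00236) and the mitochondrial iron importer gene Slc25a28 (-0.33, edgeR FDR 0.00565). Cisd3 (0.44, edgeR FDR 0.0108) and the cysteine desulfurase gene Nfs1 (0.25, edgeR FDR 0.0312) rose. Without replicate 2 of either genotype 2 genes of this list were called, and 3 without wild-type replicate 1 or 3. Of 13 targets of the stress factor NRF2, which also acts on Hmox1, Fth1, Ftl1 and Slc40a1, 3 fell and 1 rose. That is 30.8% called, beside 17.5% of all genes tested. Those that fell were Gclc (-0.32, edgeR FDR 0.0095) and Gclm (-0.58, edgeR FDR 0.0391), the subunits of the first enzyme of glutathione synthesis, and Txnrd1, a thioredoxin reductase (-0.30, edgeR FDR 0.0277). G6pdx, which encodes an enzyme that makes NADPH, rose by 0.20 (edgeR FDR 0.0412).

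**Figure D5:**
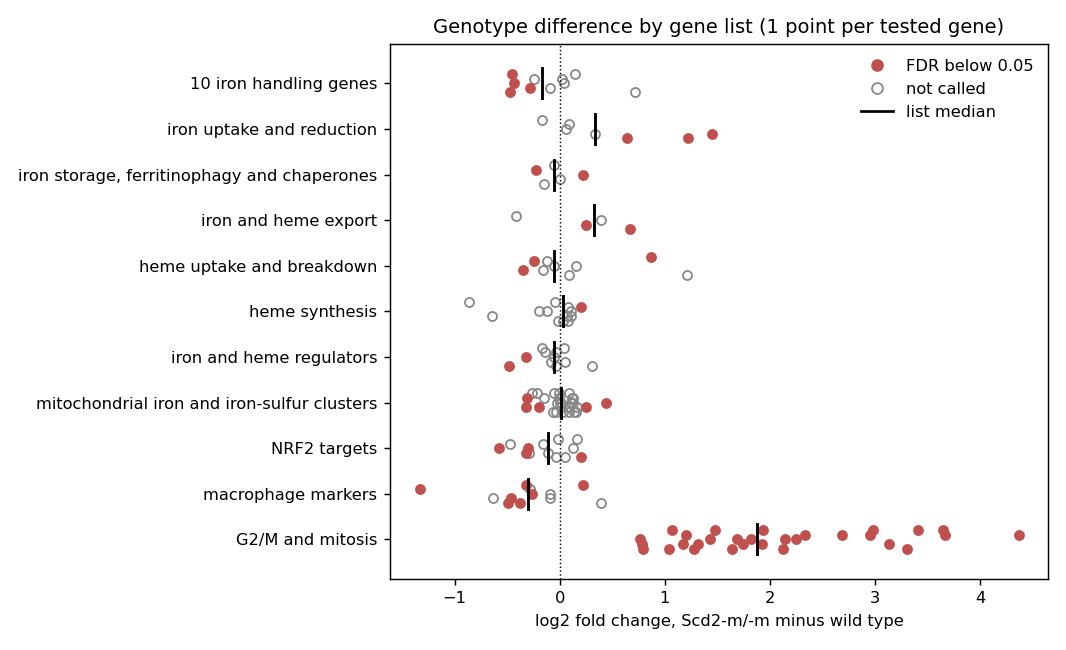
Log2 fold change (Scd2-m/-m minus wild type) of each tested gene in the 10 iron handling genes, the 7 other iron and heme lists, NRF2 targets, macrophage markers and mitosis genes, filled where the edgeR FDR was below 0.05, with the list median as a bar. The medians of the iron and heme lists lie between -0.165 and 0.337, and that of the mitosis list is 1.87.

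Markers of the cells moved beside these genes. Of 12 macrophage markers, 6 fell and 1 rose (58.3% called, beside 17.5% of all genes tested). The median of the list was -0.302 on the log2 scale, and its summed level was 42300 to 43700 CPM in wild type and 25700 to 26400 CPM in Scd2-m/-m, much of it Lyz2. Within that sum Lyz2, the locus that drives the Cre transgene, went from a mean of 22742 to 9026 CPM. The part of the transgene in this fall was not tested, so the sum is not a measure of macrophage state alone. Csf1r, the receptor for the growth factor of macrophages, fell by 0.38 (edgeR FDR 0.00158), and C1qa, C1qb, Mertk and Adgre1 also fell. Cd68 rose by 0.22 (edgeR FDR 0.0379). Mrc1 (log2 fold change 0.39), Msr1 (-0.63), Cd14 (-0.28), Fcgr1 (-0.097) and Itgam (-0.097) were not called. Of 9 monocyte and progenitor markers 7 rose (77.8% called) and 2 were not called, with sums of 47.9 to 68.1 and 146 to 207 CPM. Most of these sums was Ccr2 (means of 47.8 and 115 CPM) and Ly6a (7.73 and 43.8 CPM). All 30 tested genes of the G2 and M phases rose (median 1.87), with sums of 92.9 to 112 and 288 to 324 CPM, led by Ube2c (3.65, edgeR FDR 6.85e-09), Ccna2 (3.13), Cenpf (4.36) and Prc1 (2.12). The part of these shifts in the lower levels of Slc11a1, Slc11a2, Slc40a1 and Trf was not tested. Red cell precursors carry much Tfrc and heme synthesis RNA, and their markers were near 0: sums over the list were 1.69 to 2.85 CPM in the 6 libraries, 3 of its 13 genes present in the table were tested, none of these was called, and Rhag had 0 counts.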

How the data were processed

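Poly(A)-selected RNA of 6 BMDM samples was sequenced, 3 of each genotype. RNA integrity numbers were at least 9.3 per the labels. STAR was the aligner and GRCm38 (Ensembl primary assembly) the build, and the authors deposited raw whole-number counts per gene. The counter, its use of strand and what 1 count stands for are not given in the labels or methods, and the totals on genes were above the mean read number stated for a sample. A second deposited table holds the authors' own comparison (log2 fold changes, confidence limits, p-values, log-scale values), made with edgeR and limma per the labels, which was not used.

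Of 40757 entries in the count table, 276 repeated a gene and were removed. Genotypes were compared with edgeR 4.0.16 in R 4.3.3 (filterByExpr, TMM, robust glmQLFit, glmQLFTest), without covariates, and p-values were adjusted by Benjamini-Hochberg over 14778 genes. The code was tested on simulated data. Alternatives were RLE and upper-quartile factors, DESeq2 1.42.0, limma-voom (limma 3.58.1) with and without quality weights, all genes with a count, a minimum of 10 counts in every library, counts halved, a replicate block, leaving out each library, and an FDR below 0.01. Exon lengths, UTRs and coordinates came from the GENCODE annotation of GRCm38, which held 99.7% of the genes. Replicates differed beyond counting noise (chi-square per gene 9.65 to 29.2).

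The 10 genes and all lists were chosen with earlier results of these data known. All 10 are named, and, for each of the other iron and heme lists, NRF2 targets and mitosis genes, the called genes of smallest p (at most 4), plus Scd2, Aco1, Ncoa4 and the ferritin copies. The macrophage markers are not covered by this rule and are all named. Csf3r, S100a9, Ngp, Ccr2, Ly6a and Rhag are not covered either and were picked with their values in view.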

Additional observations from a re-analysis of the deposited data

How the results depend on the processing

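In all 15 alternative fits Slc11a1, Slc11a2, Slc40a1 and Trf stayed called and lower, and Fth1 and Ftl1 stayed uncalled with the same sign. The log2 fold changes with 1 library left out ran from -0.476 to -0.465 for Slc11a1, -0.337 to -0.252 for Slc11a2, -0.493 to -0.326 for Slc40a1, -0.51 to -0.419 for Trf, -0.363 to -0.169 for Tfrc, -0.13 to -0.0234 for Fth1, 0.0209 to 0.0648 for Ftl1, -0.0256 to 0.0695 for Hmox1, 0.0732 to 0.228 for Ireb2 and 0.34 to 0.987 for Cp. The sign of Hmox1 turned without wild-type replicate 2 (-0.00214), wild-type replicate 3 (-0.000552) or Scd2-m/-m replicate 2 (-0.0256), and it was never called. With quality weights in limma-voom 7 of the 10 genes were called, with Tfrc (-0.264, FDR 0.0155), Ireb2 (0.166, FDR 0.0445) and Cp (0.57, FDR 0.0319) added, and 4507 genes in all, 2325 higher and 2182 lower. Tfrc was also called with every gene with a count tested (-0.241, edgeR FDR 0.0044). The cause of these changes was not tested. Leaving out 1 library gave 4 to 5 called genes of the 10, 1440 to 2567 of all genes (1440 without Scd2-m/-m replicate 2 and 1490 without wild-type replicate 2), 869 to 1392 higher and 571 to 1175 lower, from fits with fewer samples, and 10 to 16 of the other iron and heme genes, 5 to 9 higher and 5 to 8 lower; the lowest count of 10 came without wild-type replicate 2 and without Scd2-m/-m replicate 2. At an FDR below 0.01 the same 4 of the 10 genes were called, 1331 genes in all (783 higher, 548 lower), and 11 of the other iron and heme genes, 5 of them higher.

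Deviations of same-numbered samples of the genotypes had correlations of 0.053, -0.0196 and 0.0398, so the main fit did not pair them. Each correlation summarises many genes and cannot show whether some of them shared a replicate effect. Replicates 1 and 3 were the most distant pair of each genotype, with a chi-square per gene of 29.2 (wild type) and 27.8 (Scd2-m/-m). Whether these distances had a shared source was not tested. With the replicate number as a block 6 of the 10 genes were called, with Tfrc (-0.232, edgeR FDR 0.0126) and Cp (0.699, edgeR FDR 0.000128) added. Calls over all genes numbered 2975, against 2585 without the block. The SE was 0.0912 for Cp, against 0.411 without the block, and 0.0584 for Tfrc, against 0.101. Among the 10 genes only Trf had a larger SE with the block (0.0823, against 0.0804). The block changed no other call among the 10.

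CPM without TMM factors moved the mean of Slc11a1 by more than its SD, to 500 CPM for wild type and to 369 CPM for Scd2-m/-m, and all other means by less. The 3 count ratios kept their signs when each library was left out. With 3 libraries a genotype, no ratio could pass 0.05. The intervals of Tfrc, Ireb2 and Cp show what differences the fit without a block could not settle. With the block, Tfrc and Cp were called and Ireb2 was not.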
